A study of Mus musculus with 6 samples.

Results

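The Wnt gene set comprised the Wnt ligands, R-spondins, Frizzled receptors, co-receptors, R-spondin receptors and inhibitors in a count table of mouse skin cells. Its members were picked by name: every gene called Wnt, Fzd, Sfrp, Dkk or Rspo with a digit after it, plus Lrp5, Lrp6, Lgr4, Lgr5, Lgr6, Wif1, Axin2, Notum, Znrf3 and Rnf43. This gave 51 of the 54532 genes in the table, after 1 antisense transcript was left out. They fell into 7 classes: 19 Wnt ligands, 4 R-spondins, 10 Frizzled receptors, 2 co-receptors, 3 R-spondin receptors, 9 secreted inhibitors and 4 feedback inhibitors.

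Wnt proteins are secreted lipid-modified ligands that bind a Frizzled receptor and, in the canonical branch, the co-receptor Lrp5 or Lrp6, which stabilises β-catenin so that it can act with TCF/LEF factors on target genes. R-spondins bind Lgr receptors and keep Frizzled on the cell surface by holding back the ubiquitin ligases Rnf43 and Znrf3. Sfrp proteins and Wif1 bind Wnts outside the cell, and most Dkk proteins block Lrp5 and Lrp6. Axin2, Notum, Rnf43 and Znrf3 are inhibitors that are themselves switched on by the pathway. In skin, Wnt signalling is known for hair follicle formation and for the upkeep of epidermal and follicle stem cells.

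RNA was profiled by SMART-seq2, a full-length protocol for few cells, from the dissociated epidermis of 4-week-old C57BL/6 mice. In the NCAM-enriched group, labelled as Merkel cells (the touch-sensing cells of the epidermis), 500 living cells that carried the adhesion molecule NCAM were sorted for each of 3 libraries. In the bulk skin group, each of 3 libraries came from 500 living cells taken without selection for NCAM. No treatment or genetic change was applied in either group, and the labels do not say whether the libraries of a group came from separate animals, so p-values measure the spread between these libraries only.

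The libraries held 1343190 to 4481830 counts, and 1 count corresponded to 0.216 to 0.773 CPM (counts scaled to the same library size, TMM-normalised). All 10 Merkel cell markers, among them Atoh1, Sox2 and Krt20, were higher in every NCAM-enriched library than in every bulk skin library, and 5 passed the test. Their summed level was 1569, 1674 and 482 CPM in NCAM-enriched libraries 1, 2 and 3 and 133 to 186 CPM in bulk skin. Other cell types differed between the groups as well. Suprabasal keratinocyte markers summed to 14318 to 37217 CPM against 1567 to 1753 CPM in bulk skin, and 7 of 10 passed as higher. T and NK cell markers summed to 1.06 to 13.1 CPM against 2799 to 2993 CPM, with Cd3d and Cd2 at 0, and Langerhans and myeloid markers to 26.3 to 353 CPM against 10475 to 18368 CPM, with 6 of 6 lower in each list. Red blood cell markers summed to 1.42 to 22.8 CPM against 736 to 1170 CPM, with 4 of 4 lower. In such pooled cells, fewer cells of a type and less RNA per cell cannot be told apart.

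A gene was called when its Benjamini-Hochberg adjusted p in edgeR's quasi-likelihood test was at most 0.05. Of the 51 Wnt genes, 38 had enough counts to be tested, among 13157 genes in all. Of these, 3 fell in the NCAM-enriched group and none rose. The 3 that fell were Sfrp2, Sfrp4 and Lgr6. Of all genes tested, 1.55% were called lower, 1.04% higher and 2.59% in either direction. At an unadjusted p under 0.05, 6 Wnt genes were higher and 8 lower. DESeq2 called 2 Wnt genes higher (Wnt3 and Wnt7b) and 7 lower (Sfrp2, Sfrp4, Lgr6, Sfrp1, Wnt2, Rspo1 and Fzd4), beside 5.02% and 7.05% of all genes. With limma-voom, 1 was called higher (Wnt7b) and 6 lower (those of DESeq2 other than Sfrp1), beside 2.67% and 6.45%. In 5 of the 38 genes every NCAM-enriched library lay above every bulk skin library (11.1% of all genes tested), and in 12 every one lay below (19.3%). Among the 12, Sfrp2, Sfrp4, Wnt2, Fzd4 and Rspo1 had enough counts to be tested through bulk skin alone. The fitted log2 difference was above 0 in 16 genes and below 0 in 22, that is above 0 in 42.1% of Wnt genes and 47.7% of all genes. Its median was -0.23 over the Wnt genes and -0.07 over all genes.

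**Figure D1:**
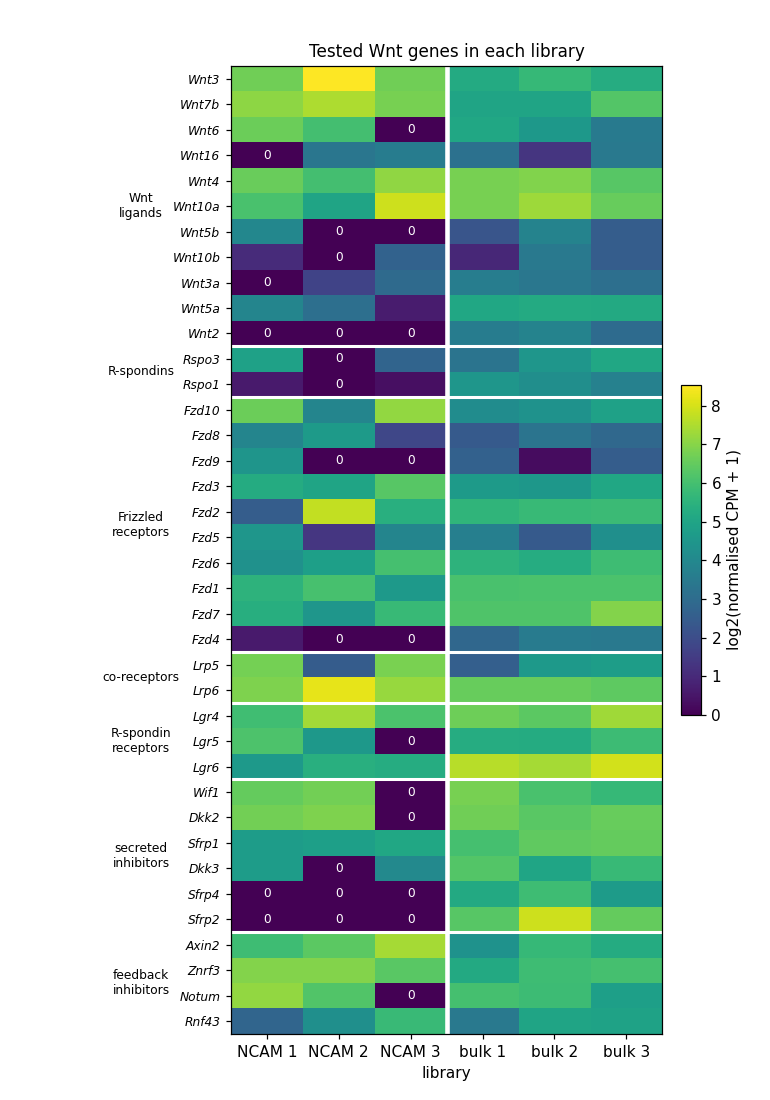
Level of each of the 38 tested Wnt genes (rows, grouped by class) in each of the 6 libraries (columns), as log2(normalised CPM + 1), with colour from 0 (dark) to high (yellow) and 0 written where a library had no count. All zeros shown lie in the NCAM-enriched libraries, 5, 10 and 11 of the 38 genes in libraries 1, 2 and 3, and none in bulk skin. Of all tested genes, 8.75%, 17.9% and 7.99% are at 0 in these libraries, and 2.07%, 0.798% and 1.0% in bulk skin libraries 1, 2 and 3. Over all 51 Wnt genes, tested or not, 13, 21 and 15 are at 0 in NCAM-enriched libraries 1, 2 and 3, and 7, 5 and 5 in bulk skin.

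Among the tested Wnt genes the largest difference was in Sfrp2, secreted frizzled-related protein 2 (GRCm38 chr3:83766321-83774316, + strand), a soluble Wnt binder that is abundant in dermal fibroblasts. It had no count in any NCAM-enriched library and stood at 78.2, 236 and 90.7 CPM in bulk skin libraries 1, 2 and 3, from 1677 counts. The groups were thus fully separate, and bulk skin library 2 held the most. Set against a floor of 3 counts in the whole group, Sfrp2 was at least 326-fold lower (edgeR adjusted p = 0.00939). The bound was 154-fold without NCAM-enriched library 3 and 190-fold without bulk skin library 2. Of its exonic bases, 16.117% also belong to another annotated gene, Gm26771, and SMART-seq2 does not mark the strand of a read.

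Sfrp4 (GRCm38 chr13:19623104-19632994, + strand), a relative of Sfrp2, followed the same pattern at a lower level. It too had no count in the 3 NCAM-enriched libraries and stood at 35.4, 57.3 and 24.7 CPM in bulk skin, from 469 counts. It was at least 91.1-fold lower (edgeR adjusted p = 0.0264), and leaving out NCAM-enriched library 3 brought the bound to 43.2-fold. As in Sfrp2, bulk skin library 2 was the highest.

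The fibroblast markers differed among themselves and between the NCAM-enriched libraries. The 7 markers (Col1a1, Col1a2, Col3a1, Dcn, Lum, Pdgfra and Dpt) summed to 377, 33094 and 41.7 CPM in NCAM-enriched libraries 1, 2 and 3 and to 13400, 18394 and 10458 CPM in bulk skin, and 0 of 7 passed edgeR's test, with 1 at an unadjusted p under 0.05, 0 called by DESeq2, and Dcn, Col3a1 and Lum called lower by limma-voom. NCAM-enriched library 2 was above every bulk skin library in this sum, and it held no count of Sfrp2 or Sfrp4. Within the list, Col1a2 at 15390 CPM and Col1a1 at 11884 CPM were the largest parts of the sum in that library. These and Pdgfra, at 71.1 CPM, were above all bulk skin libraries. Col3a1 at 4839 CPM lay within the bulk skin range, and Dcn at 774 CPM, Lum at 44.8 CPM and Dpt at 91.2 CPM were below all bulk skin libraries. Dcn, Lum and Dpt were the 3 of 7 markers that lay lower in every NCAM-enriched library, and 6 of 7 had a log2 difference below 0. In libraries 1 and 3 Lum was at 0. The part of fibroblast RNA in the Sfrp2 and Sfrp4 results was not tested.

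**Figure D2:**
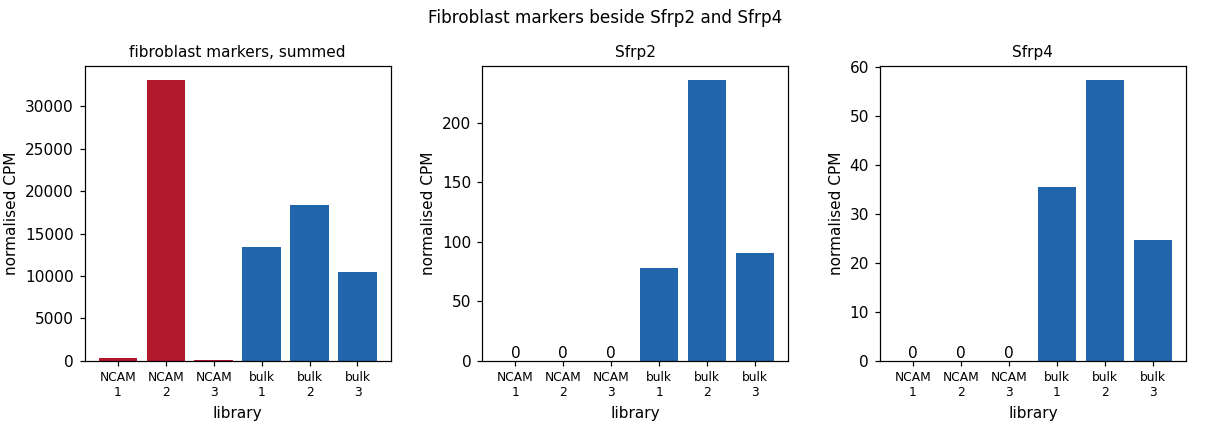
Summed normalised CPM of 7 fibroblast markers (left) and normalised CPM of Sfrp2 (middle) and Sfrp4 (right) in each library, as bars that start at 0, with NCAM-enriched libraries in red and bulk skin libraries in blue. NCAM-enriched library 2 has the highest marker sum, 33094 CPM, of which Col1a2 and Col1a1 are the largest parts, and no count of Sfrp2 or Sfrp4.

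Lgr6 (GRCm38 chr1:134983301-135105276, − strand), an R-spondin receptor that marks stem cells of the upper hair follicle and of the epidermis between follicles, was the third gene that fell. It stood at 23.4, 40.9 and 37.5 CPM in the NCAM-enriched libraries and at 197, 166 and 248 CPM in bulk skin. No library of the NCAM-enriched group came near the lowest bulk skin library. The log2 difference was -2.58 ± 0.41 (SE, n = 3 against 3, edgeR adjusted p = 0.0195). Over the same libraries the summed markers of the upper and outer hair follicle were higher in the NCAM-enriched group, at 12135, 6444 and 29218 CPM against 2100 to 2736 CPM, with 1 of 7 tested genes called (Krt17). Krt17, at a mean of 9851 against 1106 CPM, and Krt79, at 5416 against 575 CPM, made up most of that sum. DESeq2 and limma-voom called both higher and Tbx1 lower. Of the 7, 4 had a log2 difference below 0 (median -0.13). Among them, Tbx1 was at 0 in all 3 NCAM-enriched libraries, and Lrig1 stood at 123 ± 94.0 CPM (SD, n = 3) against 140 ± 27.4 CPM. Krt75, which was not tested, was also at 0 there, and its 21 bulk skin counts all came from library 3. Basal keratinocyte markers overlapped between the groups in all 6 genes, with sums of 5153 to 19934 CPM against 7973 to 9642 CPM. Their part in the Lgr6 result was not tested.

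All 3 genes stayed called when NCAM-enriched library 1, 2 or 3 was left out, and none did when a bulk skin library was left out. Over all genes, too, the fewest calls came without a bulk skin library. Without bulk skin library 1, 2 or 3, the edgeR adjusted p was 0.0637, 0.0784 and 0.0632 for Sfrp2, 0.208, 0.201 and 0.149 for Sfrp4, and 0.13, 0.108 and 0.144 for Lgr6.

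The promoters of Sfrp2 and Lgr6, as called genes, and of Dkk1, as a gene with a match, are given from RefSeq on GRCm38.p6, as the 250 bases before the annotated start in the direction of the gene. Sfrp4, also called, had no entry among the promoters used. They were searched for 2 sets of letters that hold the core recognised by TCF/LEF factors, CTTTGAT and CTTTGAA, on both strands, and capitals mark a match. The Sfrp2 promoter lies at chr3:83766071-83766320 (+ strand), that of Lgr6 at chr1:135105277-135105526 (− strand) and that of Dkk1 at chr19:30549497-30549746 (− strand). In GENCODE M21 Dkk1 starts at 30549665, inside its window, so the Dkk1 match lies within that annotated gene.
Sfrp2: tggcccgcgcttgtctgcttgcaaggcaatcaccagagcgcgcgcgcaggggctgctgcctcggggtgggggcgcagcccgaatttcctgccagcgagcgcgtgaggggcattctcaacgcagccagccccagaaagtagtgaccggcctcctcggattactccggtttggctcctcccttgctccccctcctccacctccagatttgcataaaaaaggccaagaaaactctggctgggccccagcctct
Lgr6: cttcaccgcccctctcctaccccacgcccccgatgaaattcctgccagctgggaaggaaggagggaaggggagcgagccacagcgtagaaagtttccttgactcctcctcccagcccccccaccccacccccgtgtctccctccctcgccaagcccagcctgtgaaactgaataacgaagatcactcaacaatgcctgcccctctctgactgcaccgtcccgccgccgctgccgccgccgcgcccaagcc
Dkk1: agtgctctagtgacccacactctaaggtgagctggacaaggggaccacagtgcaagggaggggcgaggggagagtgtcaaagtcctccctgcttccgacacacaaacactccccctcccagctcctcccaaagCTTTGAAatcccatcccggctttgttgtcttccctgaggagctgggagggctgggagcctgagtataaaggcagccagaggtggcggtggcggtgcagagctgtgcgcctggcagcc
A match was found in 3 of the 32 Wnt genes with a promoter entry (9.38%), namely Dkk1, Wnt11 and Wnt5b, and in 8.63% of all 27025 genes. A match is a description of letters and not a binding site, and the lack of one in Sfrp2 and Lgr6 says only that these letters are not in this window.

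Among the Wnt ligands, 11 of 19 were tested and none was called by edgeR (3 at an unadjusted p under 0.05, with 3 called by DESeq2 and 2 by limma-voom), and their summed level was 625 ± 98.2 CPM (SD, n = 3) after NCAM enrichment and 415 ± 52.3 CPM in bulk skin. Wnt3, a canonical ligand of the hair follicle epithelium, stood at 102, 369 and 101 CPM against 36.0, 51.4 and 38.1 CPM. Its groups did not overlap, NCAM-enriched library 2 was the highest, and the log2 difference of 2.18 ± 0.58 (SE) missed the threshold (edgeR adjusted p = 0.0792). It passed without NCAM-enriched library 3 (adjusted p = 0.0404) and in DESeq2 (adjusted p = 0.00971), and without NCAM-enriched library 2 the log2 difference was 1.26 (edgeR adjusted p = 0.0779).

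Wnt7b, a ligand of the epidermis and follicle, stood at 135, 179 and 110 CPM against 30.4, 30.9 and 75.9 CPM. These groups did not overlap either, with a log2 difference of 1.63 ± 0.49 (SE, edgeR adjusted p = 0.111; DESeq2 0.0351, limma-voom 0.042). In the annotation 6.615% of its exonic bases are shared with AU022754. Wnt3 and Wnt7b were the only tested ligands in which all NCAM-enriched libraries lay above all bulk skin libraries.

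Wnt10a, Wnt4, Wnt6 and Wnt16 overlapped between the groups. Wnt10a, a ligand needed for hair and teeth, stood at 67.5, 30.9 and 234 CPM against 108, 156 and 91.6 CPM. Wnt4 stood at 94.1, 62.6 and 139 CPM against 110, 121 and 79.2 CPM, with a log2 difference of -0.07 ± 0.42 (SE). Wnt6 stood at 96.7, 61.8 and 0 CPM against 33.2, 22.5 and 10.1 CPM, and its overlap came from NCAM-enriched library 3 alone. Wnt16 stood at 0, 9.27 and 11.1 CPM against 8.07, 1.51 and 9.87 CPM.

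The ligands that lay lower in every NCAM-enriched library were Wnt2, Wnt3a and Wnt5a. Wnt2 had no count in the NCAM-enriched group and stood at 10.9, 13.2 and 6.85 CPM in bulk skin, from 121 counts, at least 23.5-fold lower (edgeR adjusted p = 0.0697) or 11.1-fold without NCAM-enriched library 3 (adjusted p = 0.0463). Wnt5a, the main ligand of β-catenin-independent signalling, stood at 13.8, 7.73 and 0.568 CPM against 33.2, 35.9 and 35.1 CPM, a log2 difference of -2.25 ± 1.05 (SE, edgeR adjusted p = 0.294) that was -3.19 without NCAM-enriched library 1. Wnt3a stood at 0, 2.32 and 6.81 CPM against 11.2, 9.51 and 7.68 CPM. The bulk skin values of Wnt5a had an SD of 1.37 CPM, while its NCAM-enriched values ran from near 0 upward. Wnt5b, at 14.3, 0 and 0 CPM against 3.73, 13.2 and 4.66 CPM, and Wnt10b, at 1.06, 0 and 5.39 CPM against 0.931, 9.94 and 4.66 CPM, overlapped.

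The other 8 ligands had too few counts to be tested. Wnt11 had 24 counts in the NCAM-enriched group against 28 in bulk skin, Wnt9a 17 and 36, Wnt1 3 and 32, Wnt2b 3 and 15, and Wnt8a 1 and 10. Of these, 23 of the 24 Wnt11 counts and all 17 Wnt9a counts came from NCAM-enriched library 3. Wnt7a had 8, Wnt8b 3 and Wnt9b 1 count after NCAM enrichment, and bulk skin had none of them.

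R-spondins, the secreted ligands of the Lgr receptors, were low in the NCAM-enriched group, with a summed level of 29.8, 0 and 5.96 CPM against 34.8, 53.6 and 50.4 CPM. Rspo1 had 2 counts after NCAM enrichment against 195 in bulk skin, or 0.531, 0 and 0.284 CPM against 21.1, 17.5 and 12.6 CPM. The ratio was 56.8-fold, with a 95% counting interval of 15.5 to 473, and edgeR's adjusted p was 0.0581. It was called without NCAM-enriched library 2 (adjusted p = 0.0357) or 3 (0.0446). Rspo3 overlapped, at 28.2, 0 and 5.68 CPM against 8.69, 21.4 and 32.9 CPM, so the class was not uniform. Rspo2, with 2 and 28 counts, and Rspo4, with 0 and 74 counts, were not tested, and 61 of the 74 Rspo4 counts came from bulk skin library 2. Intervals and floors here cover counting error only, since reads from amplified cDNA are not independent molecules.

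The Frizzled receptors, the membrane receptors of Wnts, did not differ in summed level beyond the spread of the libraries, 372 ± 64.1 CPM (SD, n = 3) against 333 ± 62.9 CPM, and none of the 10 was called by edgeR (3 at an unadjusted p under 0.05, with Fzd4 called by DESeq2 and limma-voom). Fzd10 stood at 97.2, 13.9 and 141 CPM against 16.8, 19.2 and 28.8 CPM. NCAM-enriched libraries 1 and 3 lay above bulk skin and library 2 lay below, giving a log2 difference of 1.96 ± 0.77 (SE, edgeR adjusted p = 0.211), and it was 2.45 without library 2 (adjusted p = 0.0126) and 1.32 without library 3 (adjusted p = 0.344). Fzd2 went the other way between libraries, at 4.78, 216 and 40.9 CPM against 46.9, 52.3 and 55.4 CPM. Fzd2 was thus lowest in library 1 and highest in library 2 of the NCAM-enriched group.

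Fzd7, Fzd1 and Fzd4 lay lower in all NCAM-enriched libraries. Fzd7 stood at 39.3, 21.6 and 53.1 CPM against 71.4, 71.3 and 123 CPM (log2 difference -1.21 ± 0.51 (SE), edgeR adjusted p = 0.238), and Fzd1 at 44.6, 65.7 and 23.0 CPM against 66.1, 68.7 and 69.1 CPM. Fzd4, which is known for blood vessels, had 1 count against 105, or 0.531, 0 and 0 CPM against 6.21, 10.6 and 9.87 CPM. Its ratio was 61.2-fold (95% counting interval 10.7 to 2440, edgeR adjusted p = 0.0933), 29.0-fold without NCAM-enriched library 3 and at least 14.7-fold without library 1. Vascular markers summed to 10.8 to 14.5 CPM after NCAM enrichment against 42.5 to 77.6 CPM in bulk skin, with Cdh5 and Tek at 0 in the NCAM-enriched group and 0 of 3 tested called by edgeR (2 at an unadjusted p under 0.05, Tek and Kdr, which DESeq2 and limma-voom called). Their part in the Fzd4 result was not tested.

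The remaining Frizzled receptors overlapped between the groups. Fzd3, a receptor of planar polarity, stood at 36.7, 30.9 and 78.0 CPM against 23.9, 21.8 and 33.2 CPM, and Fzd6, its close relative in hair patterning, at 19.1, 27.0 and 63.8 CPM against 44.7, 38.0 and 57.6 CPM. Fzd5 stood at 21.3, 1.55 and 13.9 CPM against 11.8, 4.32 and 17.8 CPM. Fzd8, at 13.8, 24.0 and 2.55 CPM against 4.35, 8.65 and 6.31 CPM, and Fzd9, at 20.7, 0 and 0 CPM against 5.28, 0.216 and 4.66 CPM, were low in both groups. All Fzd9 counts of the NCAM-enriched group came from library 1.

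Both co-receptors, the single-pass receptors that bind Wnts beside Frizzled, had a positive log2 difference, and their summed level was 224, 303 and 260 CPM in the NCAM-enriched libraries and 96.9, 117 and 111 CPM in bulk skin. Lrp6 stood at 116, 298 and 149 CPM against 91.9, 93.0 and 85.0 CPM, without overlap (log2 difference 1.06 ± 0.43 (SE), edgeR adjusted p = 0.224). Lrp5 stood at 107, 4.64 and 112 CPM against 4.97, 23.6 and 25.8 CPM (2.04 ± 1.04, adjusted p = 0.337). Lrp5 and Lrp6 were unlike in NCAM-enriched library 2, where Lrp5 was at its lowest and Lrp6 at its highest. Without that library Lrp5 was called by edgeR (adjusted p = 0.0448).

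Among the R-spondin receptors, Lgr4 and Lgr5 were not called. Lgr4, the most widely expressed of the family, stood at 60.0, 161 and 69.0 CPM against 99.7, 82.1 and 160 CPM, a log2 difference of -0.24 ± 0.50 (SE, edgeR adjusted p = 0.855) that was -0.83 without NCAM-enriched library 2. Lgr5, a marker of follicle stem cells, stood at 70.7, 22.4 and 0 CPM against 37.9, 36.7 and 56.8 CPM. Both overlapped between the groups, and whether they differ from Lgr6 in their change was not tested. The summed level of the class was 162 ± 59.6 CPM (SD, n = 3) against 361 ± 92.9 CPM.

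**Figure D3:**
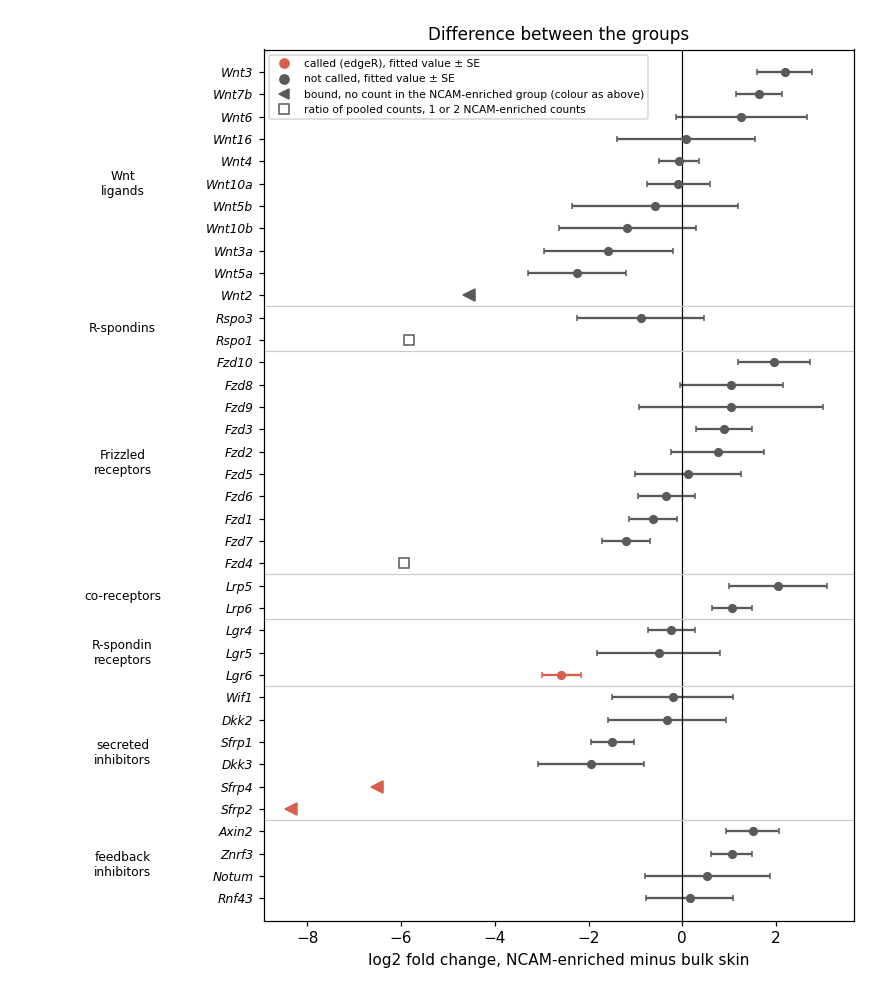
Log2 difference (NCAM-enriched minus bulk skin) of each tested Wnt gene, by class: circles are fitted values with their SE, triangles are bounds for genes without a count in the NCAM-enriched group, and open squares are ratios of pooled counts for genes with 1 or 2 counts there. The called genes Sfrp2, Sfrp4 and Lgr6 are in red and all lie below 0, while both co-receptors and the 4 feedback inhibitors lie above 0 without being called. Over all genes tested, 47.7% lie above 0. Notum (0.53 ± 1.33) and Rnf43 (0.16 ± 0.93) lie within their SE of 0, and their sign changed in some settings.

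Of the 9 secreted inhibitors, 6 were tested, and all 6 had a log2 difference below 0, with Sfrp2 and Sfrp4 called. Over all genes tested, 47.7% were above 0. Dkk2 and Wif1, described below, lay within their SE of 0. The summed level of the class was 247, 257 and 48.5 CPM in NCAM-enriched libraries 1, 2 and 3 and 503, 567 and 401 CPM in bulk skin. Sfrp1, another Wnt binder, stood at 25.5, 27.0 and 32.9 CPM against 63.0, 87.3 and 89.7 CPM (log2 difference -1.49 ± 0.45 (SE), edgeR adjusted p = 0.112, DESeq2 0.0187). Unlike its relatives it was detected in all 3 NCAM-enriched libraries, with an SD of 3.91 CPM. Dkk3, a divergent member of the Dickkopf family, stood at 25.5, 0 and 15.0 CPM against 74.8, 31.3 and 52.9 CPM (-1.95 ± 1.13, edgeR adjusted p = 0.405, and -2.72 without NCAM-enriched library 1). Sfrp5 had 1 count against 158, of which 136 came from bulk skin library 1, Dkk4 had 5 against 16, and Dkk1 had 11 counts, all from NCAM-enriched library 2, against 0, so these 3 genes were not tested.

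Dkk2, an Lrp5 and Lrp6 antagonist, and Wif1, Wnt inhibitory factor, split the NCAM-enriched group. Dkk2 stood at 103, 116 and 0 CPM against 102, 80.6 and 91.6 CPM, and Wif1 at 90.9, 105 and 0 CPM against 108, 66.6 and 51.0 CPM. In libraries 1 and 2 both lay within or above the bulk skin range, and in library 3 neither had a count. The log2 differences of Dkk2 and Wif1 were -0.33 ± 1.26 and -0.21 ± 1.28 (SE) with all libraries and 0.20 and 0.31 without library 3.

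**Figure D4:**
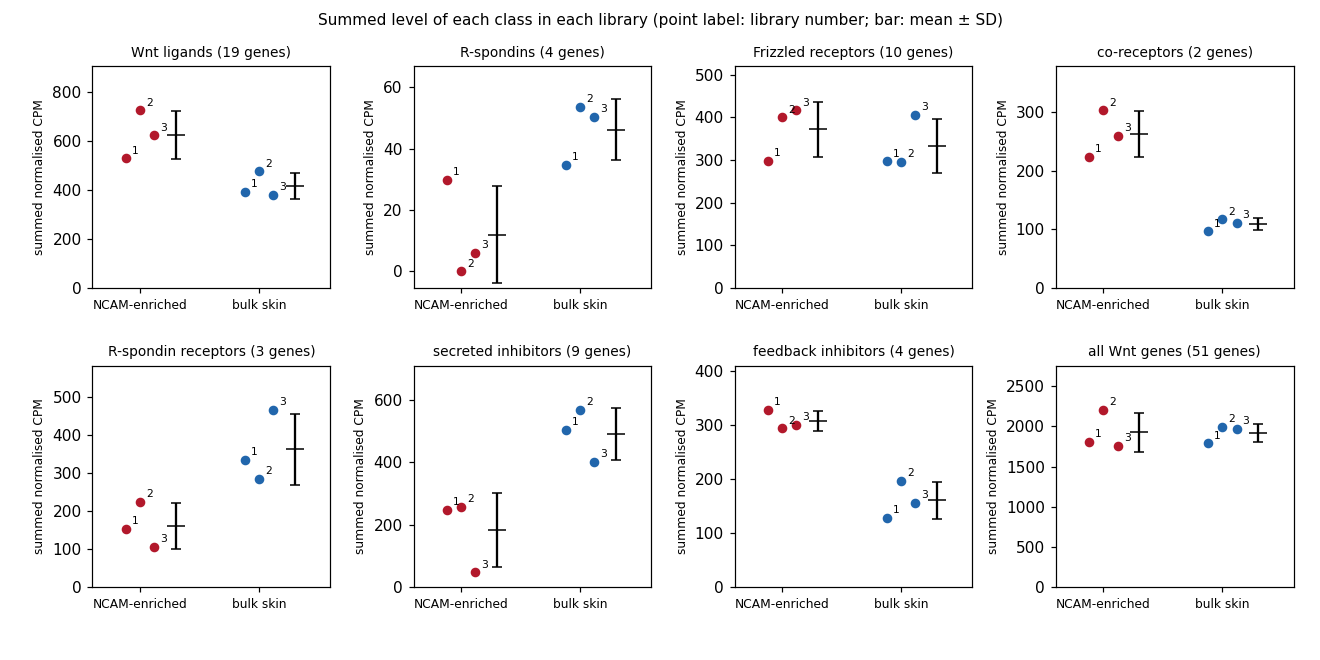
Summed normalised CPM of each class and of all 51 Wnt genes in each library, as points labelled with the library number, with the mean ± SD of each group (n = 3) beside them. Wnt ligands, co-receptors and feedback inhibitors lie higher in all NCAM-enriched libraries, secreted inhibitors, R-spondins and R-spondin receptors lie lower, and the sums of the Frizzled receptors and of all 51 genes overlap.

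The feedback inhibitors, genes that Wnt signalling itself induces, had a summed level of 328, 294 and 301 CPM in the NCAM-enriched libraries and 129, 197 and 156 CPM in bulk skin. None was called by edgeR, DESeq2 or limma-voom, and 2 of 4 had an unadjusted p under 0.05 in edgeR. Axin2, a widely used readout of the pathway and part of the β-catenin destruction complex, stood at 58.5, 81.9 and 166 CPM against 19.6, 51.9 and 36.7 CPM (log2 difference 1.50 ± 0.57 (SE), edgeR adjusted p = 0.195, and 0.88 without NCAM-enriched library 3). Znrf3, a ligase that removes Frizzled from the surface, stood at 123, 122 and 80.6 CPM against 35.4, 58.4 and 63.3 CPM (1.05 ± 0.43, adjusted p = 0.225). Both were without overlap. Other widely used target genes of the pathway went both ways. Ccnd1, Myc and Lef1 had log2 differences of 0.77, 1.04 and 1.09, and Tcf7 and Nkd1 of -1.70 and -1.65. None of these was called by edgeR, and only Tcf7 was without overlap. Sp5 had 0 counts against 6 and was not tested.

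Rnf43, the partner of Znrf3, overlapped, at 5.85, 17.8 and 54.2 CPM against 9.94, 30.7 and 29.3 CPM. Notum, an enzyme that strips the lipid from Wnts, stood at 140, 72.6 and 0 CPM against 64.0, 56.0 and 26.9 CPM. NCAM-enriched libraries 1 and 2 were above all bulk skin libraries for Notum and library 3 had no count. Of its exonic bases, 38.123% are shared with Notumos and Myadml2os. Smaller overlaps with other genes were annotated for Fzd5 (17.831%), Rspo3 (13.074%), Wnt5a (4.576%), Axin2 (3.796%) and Fzd6 (3.155%), and reads from the shared bases cannot be told apart without strand.

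Over all 51 genes the summed level did not differ beyond the spread of the libraries, 1924 ± 243 CPM (SD, n = 3) after NCAM enrichment and 1915 ± 111 CPM in bulk skin. The plot of class sums shows the classes behind this total.

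Wnt genes were often at 0 in single NCAM-enriched libraries. Of the 38 tested genes, 5, 10 and 11 had no count in NCAM-enriched libraries 1, 2 and 3 (13.2%, 26.3% and 28.9%). Of all tested genes, 8.75%, 17.9% and 7.99% had none there. In bulk skin libraries 1, 2 and 3 none of the 38 was at 0, beside 2.07%, 0.798% and 1.0% of all tested genes. Sfrp2, Sfrp4 and Wnt2, without a count in the NCAM-enriched group, passed the count filter through bulk skin alone. So did Fzd4 and Rspo1, with 1 and 2 counts in the NCAM-enriched group. For such genes the zeros and the lower values partly follow from the filter, which the all-gene shares passed through as well. Over all 51 Wnt genes, 13, 21 and 15 were at 0 in NCAM-enriched libraries 1, 2 and 3, and 7, 5 and 5 in bulk skin. No share over all genes of the table was taken beside these counts. Lgr5, Wnt6, Notum, Dkk2 and Wif1 had no count in NCAM-enriched library 3 and at least 20 counts in each of the other 5 libraries. Over all 13157 tested genes this held for 52 (0.395%). Rspo3 and Dkk3 had the same pattern for NCAM-enriched library 2, as did 417 genes (3.17%). Library 3 had the most counts of its group, 3798136, and library 2 the fewest, 1343190. Library 3 also had the lowest Merkel marker sum of its group, 482 CPM, and the highest basal keratinocyte and hair follicle sums, 19934 and 29218 CPM. The part of either in these zeros was not tested.

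**Figure D5:**
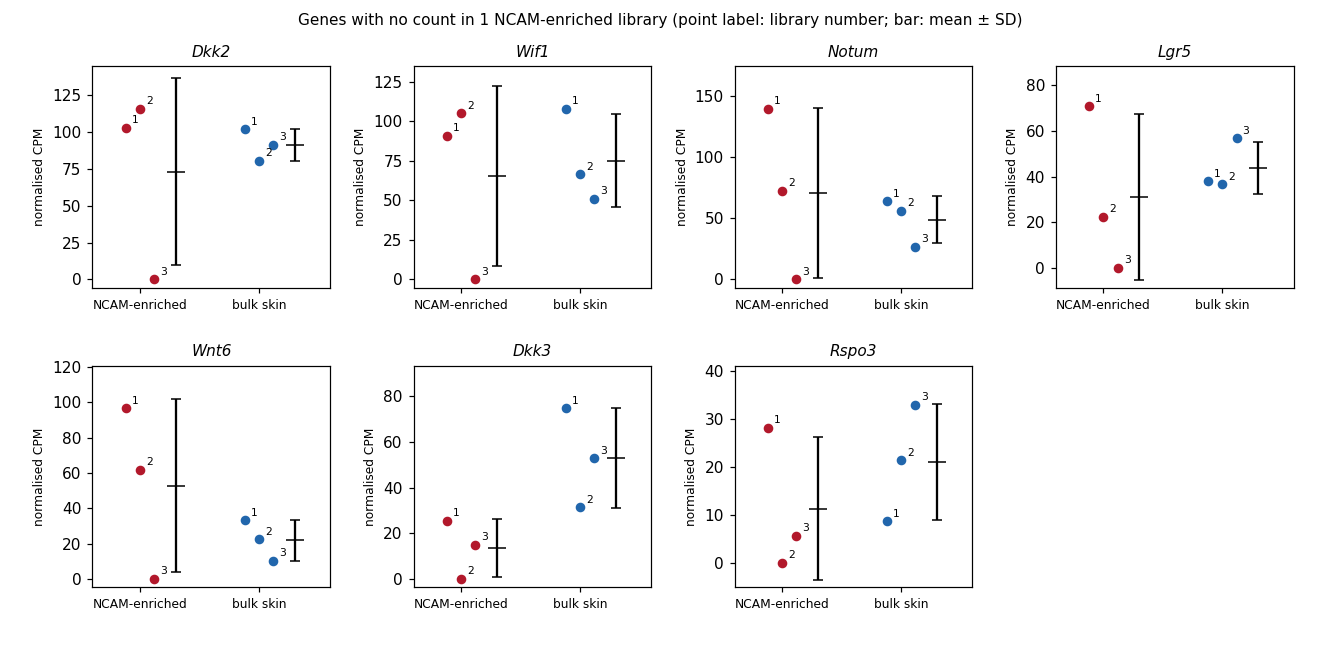
Normalised CPM in each library (points labelled with the library number, mean ± SD beside them, n = 3) of the 7 Wnt genes that had no count in 1 NCAM-enriched library and at least 20 counts in each of the other 5 libraries. Dkk2, Wif1, Notum, Lgr5 and Wnt6 are at 0 in library 3 only, and Dkk3 and Rspo3 in library 2 only.

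Levels were compared between genes per exonic length, as TPM, the share of transcripts scaled to a fixed total. In the NCAM-enriched group the order of mean levels began with Wnt3 at 170 ± 148 TPM (SD, n = 3), Wnt10a at 118 ± 116 TPM, Wnt7b at 77.5 ± 23.4 TPM, Notum at 77.2 ± 73.3 TPM and Wif1 at 72.2 ± 64.2 TPM. The SD of each was larger than the step to the next gene. In bulk skin it began with Sfrp2 at 179 ± 130 TPM, Wnt10a at 134 ± 47.3 TPM, Wif1 at 83.8 ± 24.8 TPM, Lgr6 at 82.0 ± 18.2 TPM and Wnt4 at 68.2 ± 16.7 TPM, and the ranges of mean ± SD of neighbours overlapped. Sfrp2 thus had the highest mean per length of the set in bulk skin and no count in the NCAM-enriched group.

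Beyond the 51 genes, 66 other genes of Wnt signalling were examined and 61 tested. Of these, 2 rose (1.04% of all genes), none was called lower by edgeR (1 at an unadjusted p under 0.05, with 1 called by DESeq2 and 2 by limma-voom) and 59 were not called, with a median log2 difference of 0.53. Both genes that rose act in planar cell polarity, the branch that orients cells within the sheet. Celsr2, an atypical cadherin, stood at 314, 437 and 599 CPM against 57.4, 105 and 139 CPM (log2 difference 2.16 ± 0.45 (SE), edgeR adjusted p = 0.0460). Daam1, a formin that links Dishevelled to actin, stood at 185, 185 and 125 CPM against 59.0, 37.6 and 41.7 CPM (1.84 ± 0.40, adjusted p = 0.0496). Neither was called when NCAM-enriched library 1 (adjusted p = 0.0572 and 0.0992) or any bulk skin library was left out (0.185 to 0.27 for Celsr2 and 0.224 to 0.253 for Daam1). Both were also lost in edgeR without TMM (adjusted p = 0.0513 each) and under the replicate block (0.0508 and 0.119), and Daam1 with DESeq2 size factors.

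By list, the 8 planar polarity genes had 4 members higher and 1 lower without overlap, and the 14 tested destruction complex and kinase genes had 6 higher and none lower, beside 11.1% higher and 19.3% lower over all genes tested. None of the 14 was called by edgeR (2 at an unadjusted p under 0.05), DESeq2 or limma-voom. By the mean over both groups, the most abundant genes that were not called were Sostdc1, a secreted Wnt and BMP antagonist, at 783 ± 375 CPM (SD, n = 3) against 831 ± 165 CPM, Csnk1a1, a kinase that primes β-catenin for destruction, at 685 ± 143 CPM against 422 ± 61.2 CPM, and Ctnnb1, which encodes β-catenin itself, at 234 ± 91.1 CPM against 297 ± 33.6 CPM. Ctnnb1 overlapped between the groups (log2 difference -0.34 ± 0.38 (SE), edgeR adjusted p = 0.698). Of the 16 nuclear genes of the pathway none was called by edgeR (4 at an unadjusted p under 0.05, with Bcl9l called higher and Tcf7 lower by DESeq2 and limma-voom), with 2 higher and 2 lower without overlap, beside the same 11.1% and 19.3% of all genes. Wls, the carrier that brings Wnts to the cell surface, stood at 165 ± 53.2 CPM against 264 ± 67.7 CPM, and its groups overlapped.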

How the data were processed

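SMART-seq2 libraries from 6 sorted samples were analysed, 3 per group. The authors trimmed the reads, aligned them with STAR and counted them per gene with featureCounts on GRCm38, and deposited one table of raw counts. Strand and overlap settings of the counting were not given in the sources used here. From these counts, genes were filtered with filterByExpr, scaled by TMM and tested with edgeR 4.0.16 (quasi-likelihood, R 4.3.3) over all 6 libraries, without covariates, with Benjamini-Hochberg adjustment over 13157 genes. The SE of an edgeR log2 difference was derived from the test, as its absolute value over the square root of the F statistic. DESeq2 1.42.0 and limma 3.58.1 were run as alternatives. Only the main edgeR fit was tested on simulated data. Library totals of 1343190 to 4481830 counts, 3 libraries per group and a common biological coefficient of variation of 0.744 limit the precision. Gene positions and exonic lengths came from GENCODE M21. The Wnt genes, the other pathway genes and 12 lists of cell type markers (75 of 76 genes analysed) were chosen with earlier results of these data known. Values in every library are given for each Wnt gene that could be tested, and group counts for the others. Of the other pathway genes, the called ones and the 3 most abundant of the rest are given. Wls and the widely used target genes were added after their values were seen. Hair matrix markers summed to 49.4 to 175 CPM in NCAM-enriched libraries and 17.5 to 24.9 CPM in bulk skin, melanocyte markers to 2.27 to 68.8 and 0.432 to 3.56 CPM, and glial markers to 12.4 to 82.9 and 38.9 to 80.3 CPM. Same-numbered libraries did not deviate together (r of -0.00436 to 0.0226), so the numbers were not treated as pairs.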

Additional observations from a re-analysis of the deposited data

How the results depend on the processing

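With 3 libraries per group, the calls changed when single libraries were left out. Over 14 alternatives, 24 of the 38 tested Wnt genes kept the sign of their log2 difference and 14 did not. None of those 14 was called. The causes of the changes below were not tested. Where a library was left out, fewer samples and the loss of that library cannot be told apart.

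Wnt genes called higher and lower (0 and 3) became 1 and 5 when every gene of at least 1 count was kept, 2 and 7 in DESeq2 and 1 and 6 in limma-voom. Other pathway genes (2 and 0) became 1 higher with DESeq2 size factors, 0 higher without TMM, 4 and 1 in DESeq2 and when genes of at least 1 count were kept, and 2 lower in limma-voom. All genes (137 and 204) became 769 and 741 with at least 1 count, 661 and 928 in DESeq2, and 351 and 849 in limma-voom. Same-numbered libraries did not deviate together, which does not exclude a shared origin, and the labels do not say whether they are pairs. With the replicate number as a block in edgeR, 0 Wnt genes were higher (3 at an unadjusted p under 0.05) and 1 lower (Sfrp2, adjusted p = 0.0165), with Sfrp4 at 0.0957 and Lgr6 at 0.0503, 0 other pathway genes were higher (6 at an unadjusted p under 0.05), and 50 genes in all were higher and 92 lower. The median log2 difference of the Wnt genes, -0.23, was -0.72 with the block and -1.02 in limma-voom.

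Leaving out each library in turn gave 0 to 2 Wnt genes higher and 0 to 5 lower, 0 to 3 and 0 to 2 other pathway genes, and 0 to 1099 and 13 to 733 of all genes. The lowest counts came without a bulk skin library, when 2 Wnt genes were higher and 7 or 8 lower at an unadjusted p under 0.05 in edgeR. The highest for all genes came without NCAM-enriched library 3.

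Uncalled log2 differences that changed sign when a library was left out were, with the range over libraries left out, Dkk2 -0.33 (-0.86 to 0.20), Fzd2 0.75 (-1.16 to 1.28), Fzd5 0.12 (-0.50 to 0.62), Fzd9 1.03 (-6.47 to 1.60), Lgr4 -0.24 (-0.83 to 0.01), Lgr5 -0.50 (-2.06 to 0.04), Notum 0.53 (-0.49 to 1.06), Rnf43 0.16 (-1.07 to 0.63), Sostdc1 -0.09 (-0.62 to 0.12), Wif1 -0.21 (-0.77 to 0.31), Wnt10a -0.09 (-1.32 to 0.34), Wnt16 0.07 (-0.59 to 0.65), Wnt4 -0.07 (-0.46 to 0.16) and Wnt5b -0.59 (-7.57 to 0.13). With the replicate block, the sign also changed in Fzd2 -0.46, Fzd5 -0.26, Fzd9 -1.57, Wnt16 -0.29, Notum -0.71 and Rnf43 -0.22. In limma-voom it changed in Fzd2 -0.74, Fzd9 -0.96, Wnt16 -0.62, Wnt6 -1.95 and Notum -3.18. Wnt16 was at -0.01 without TMM and also when every gene with 1 count or more was kept.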
